A study of Mus musculus with 3 samples.

Results

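A set of 9 genes that mark classical monocytes of the mouse were followed across sorted spleen cells: Vcan, Fn1, Hp, Chil3, Ly86, Gpr35, Ifitm6, Plac8 and Mgst1. They were taken as every probe set whose platform annotation names 1 of these 9 symbols alone. This gave 18 probe sets of 45037 on the array, and 9 genes of 18193. The populations were red pulp macrophages, sorted as high for the macrophage surface protein encoded by Adgre1 and for green fluorescent protein (GFP), Spic-positive monocytes, sorted as positive for CD11b, Ly6C and GFP, and Spic-negative monocytes, sorted as positive for CD11b and Ly6C and without GFP. All 3 came from the spleens of adult Spic(igfp/+) mice, in which 1 Spic allele carries GFP as a reporter, so no population came from mice without the reporter allele. For the monocytes, cells carrying CD4, CD8 or B220 had been removed with magnetic beads beforehand; whether this also held for the macrophages is not clear from the labels. There was 1 array per population, with no replicates. The precision is limited by this number of arrays, and no test between populations was possible. The labels give neither the number nor the sex of the mice.

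Classical monocytes are short-lived blood cells that carry Ly6C and the chemokine receptor Ccr2, leave the bone marrow and enter tissues, where some of them become macrophages. Their RNA is rich in secreted proteins, matrix proteins and small membrane proteins of early inflammation, and several of these genes are also active in neutrophils. Red pulp macrophages take up old red blood cells, return their iron to the body, and depend on the transcription factor Spic. The comparison of the 3 populations asks how far the RNA of a classical monocyte is still present in monocytes that have begun to express Spic, and in the macrophage.

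Promoter sequence is shown for Vcan, the gene with the widest difference between the arrays by its brightest probe set, and for Chil3 and Ifitm6, which were the only members to hold any of the motifs searched. The RefSeq promoter table (GRCm38.p6) held 10 promoters of 7 members, from 250 bases before to 50 after the start of the gene. The 250 bases before the start are printed 5′ to 3′ on the strand of the gene, with motif matches in capitals. Vcan lies on the minus strand at chr13:89742513-89742762, Chil3 on the minus strand at chr3:106167565-106167814 and Ifitm6 on the minus strand at chr7:141016893-141017142.
Vcan: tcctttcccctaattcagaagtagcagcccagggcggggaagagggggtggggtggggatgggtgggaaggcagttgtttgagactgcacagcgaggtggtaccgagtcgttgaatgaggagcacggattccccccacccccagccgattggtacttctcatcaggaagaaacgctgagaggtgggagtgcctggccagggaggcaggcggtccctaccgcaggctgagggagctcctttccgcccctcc
Chil3: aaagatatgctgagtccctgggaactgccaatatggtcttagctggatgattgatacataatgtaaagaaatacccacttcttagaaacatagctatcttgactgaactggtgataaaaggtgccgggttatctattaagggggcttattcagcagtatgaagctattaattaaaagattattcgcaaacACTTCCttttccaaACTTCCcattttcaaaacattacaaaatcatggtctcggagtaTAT
Ifitm6: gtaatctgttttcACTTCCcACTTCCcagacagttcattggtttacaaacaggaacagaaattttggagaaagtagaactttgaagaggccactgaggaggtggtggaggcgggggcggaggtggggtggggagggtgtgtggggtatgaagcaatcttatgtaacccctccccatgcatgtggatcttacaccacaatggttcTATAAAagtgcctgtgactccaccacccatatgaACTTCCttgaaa

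The letters searched on both strands were GAGGAAGT, a site of the kind bound by the Ets factors PU.1 and Spi-C, then the C/EBP-type palindrome TTGCGCAA, and TTGCNNCAA. None of them occurred in the 10 windows. Over all 32851 promoters of this length, 3.2% held the first, 0.18% the second and 2.08% the third. The third is longer than the second and differs in spacing, so that a match of the second is not a match of the third. Its absence therefore says nothing about C/EBP sites with the spacing of the second. The shorter Ets core GGAAGT, which lies within the first motif, and the TATA letters TATAAA were added after the sequences had been seen. The windows of Chil3 and Ifitm6 held both, with GGAAGT on the opposite strand, where it reads ACTTCC, at 2 places in Chil3 and 3 in Ifitm6. GGAAGT occurred in 23.8% and TATAAA in 13.6% of all promoters. In Chil3 the TATA letters begin 3 bases before the annotated start, so the printed run holds only their first 3 letters.

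The genes used for sorting come first, since they check the labels. Spic stood at log2 12.23 in red pulp macrophages, 9.22 in Spic-positive monocytes and 5.66 in Spic-negative monocytes. Adgre1, which encodes the surface protein of the macrophage gate, measured 12.50, 10.67 and 10.77 in the same order, and Itgam, which encodes CD11b, 5.23, 7.38 and 8.68. The macrophage array also differed from both monocyte arrays in Xist, an RNA made from the inactive X (11.95 against 4.70 in Spic-positive and 4.63 in Spic-negative monocytes), and in the Y-linked gene Eif2s3y (3.31 against 9.56 and 10.10). By these genes, the macrophage array carried RNA of female type and the monocyte arrays RNA of male type. On these arrays sex cannot be told apart from macrophage against monocyte, and its part in the values below was not tested. On the array of Spic-positive monocytes, 18 hybridization controls were brighter than on the array of Spic-negative monocytes by a median of log2 2.16. Gapdh control probe sets for the 3′ end exceeded those for the 5′ end, a sign of RNA and labelling quality, by log2 1.61 in red pulp macrophages, 2.25 in Spic-positive monocytes and 0.48 in Spic-negative monocytes. Those for beta-actin gave another order, 1.13, 0.57 and 0.74.

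By its brightest probe set, every one of the 9 genes was lower in red pulp macrophages than in either monocyte population. Against Spic-negative monocytes the amounts ranged from 1.35-fold for Ly86 to at least 18.4-fold for Vcan. Of all genes above the floor, 48.2% were lower by any amount in macrophages than in Spic-negative monocytes, and 46.1% than in Spic-positive monocytes. The bound for Vcan is taken against the floor, since its macrophage value lay below it. Of the 9, 7 were at least 2-fold lower in macrophages than in Spic-negative monocytes, a share to be read beside the 11.3% of all 12375 genes above the floor that were lower by as much. The floor was log2 5.02, the median of all probe sets, and a gene was compared where its brightest array lay above it; all 9 members passed. Against Spic-positive monocytes 4 of 9 were at least 2-fold lower in macrophages, beside 11.6% of all genes. At 4-fold, 3 of 9 were lower in macrophages in each of these comparisons, beside 2.63% and 2.04% of all genes. Lower by 2-fold against both monocyte populations were 4 of 9, Vcan, Fn1, Plac8 and Ifitm6, beside 7.39% of all genes. The comparisons share the macrophage array, so they are not independent. The members were chosen with earlier results of these data known, and both monocyte populations were sorted for Ly6C and CD11b. The counts are therefore a description of these arrays only. The median difference over the members was log2 -1.85 against Spic-negative and -0.99 against Spic-positive monocytes, and that of all genes was 0.03 and 0.10. Every member except Vcan stayed above the floor in macrophages.

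Between the monocyte populations the members differed less. Vcan and Hp were at least 2-fold lower in the Spic-positive cells, 2 of 9, beside 3.06% of all genes, and the median difference was -0.50, against -0.06 for all genes. By brightest probe sets, the order from Spic-negative through Spic-positive monocytes down to macrophages held for 8 of 9 members and 20.2% of all genes. Plac8 was the exception, and Ly86 differed by only -0.02 between the monocyte arrays. Other steps were small beside the median disagreement between probe sets described below. Between the monocyte arrays Chil3 differed by -0.36 and Gpr35 by -0.31, beside 0.36. Between macrophages and Spic-positive monocytes Hp differed by -0.44 and Mgst1 by -0.38, beside 0.64. For Vcan the monocyte order was reversed on another probe set, 1427257_at.

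**Figure D1:**
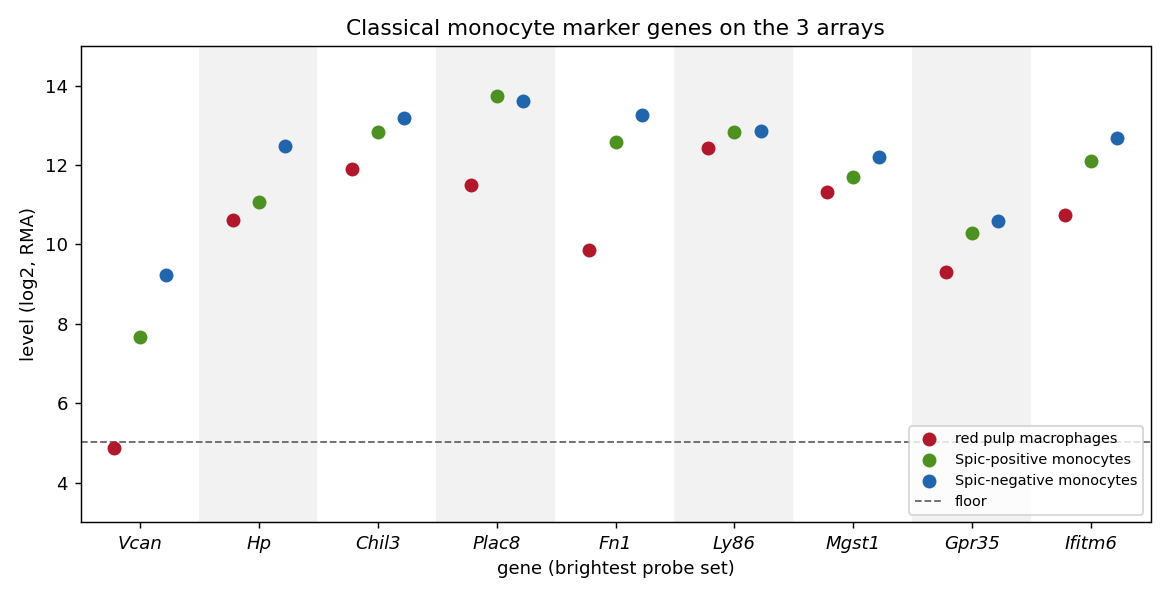
Level (log2, RMA) of the 9 genes on the arrays of red pulp macrophages, Spic-positive monocytes and Spic-negative monocytes, 1 point per array from the brightest probe set of each gene, with the floor of 5.02 as a dashed line. The macrophage point is the lowest in every gene, and only that of Vcan, at 4.88, lies below the floor; levels of different genes are not comparable with each other.

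How far such differences can be trusted without replicates was read from genes with several probe sets. In 5509 genes whose 2 brightest probe sets both rose above the floor, the differences that these probe sets gave disagreed by a median of log2 0.56 for macrophages against Spic-negative monocytes, 0.64 against Spic-positive monocytes and 0.36 between the monocyte populations. The 90th percentiles of the disagreement were 1.67, 1.83 and 0.97. Vcan, Hp, Plac8, Fn1 and Ifitm6 differed by more than the 90th percentile in the first comparison, Vcan, Plac8 and Fn1 in the second, and Vcan and Hp in the third. This yardstick covers probe set error and not the variation between animals.

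Of the matrix genes, Vcan encodes versican, a large chondroitin sulfate proteoglycan that binds hyaluronan. Its brightest probe set, 1427256_at, measured log2 4.88 in red pulp macrophages, 7.67 in Spic-positive monocytes and 9.23 in Spic-negative monocytes. The macrophage value was thus at background, and the differences of -4.35 from Spic-negative and -2.79 from Spic-positive monocytes depend on that background. Set against the floor, macrophages were on this probe set at least 18.4-fold below Spic-negative and at least 6.27-fold below Spic-positive monocytes. Only 0.12% of all genes had a more negative difference from Spic-negative monocytes. Vcan has 8 probe sets, of which 3 rose above the floor on any array.

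These 3 agreed on the macrophage and not on the monocytes. Probe set 1421694_a_at measured 3.63 in macrophages, 8.13 in Spic-positive and 8.51 in Spic-negative monocytes, and 1427257_at measured 3.75, 6.02 and 5.38. All 3 were below the floor in macrophages and above it in both monocyte populations. Between Spic-positive and Spic-negative monocytes, however, they differed by -1.56 on 1427256_at, by -0.38 on 1421694_a_at and by 0.64 on 1427257_at, so the direction was not the same on all of them. The 2-fold lower level of Vcan in Spic-positive monocytes rests on 1 probe set. The other 5 probe sets lay below the floor on every array, between 2.04 and 3.44.

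Fn1 encodes fibronectin, the matrix glycoprotein to which cells attach through integrins. It measured 9.85 in red pulp macrophages, 12.57 in Spic-positive monocytes and 13.26 in Spic-negative monocytes on 1426642_at. The second probe set, 1437218_at, measured 3.88, 8.87 and 10.01. On both probe sets the macrophage was lowest and the Spic-negative monocyte highest, but the sizes differed. The first gave -3.41 and the second -6.13 for macrophages against Spic-negative monocytes, -2.72 and -4.99 against Spic-positive monocytes, and -0.68 and -1.13 between the monocyte populations. Fn1 was therefore well above the floor in macrophages by one probe set and below it by the other, on which the bounds against the floor were at least 31.6-fold below Spic-negative and at least 14.4-fold below Spic-positive monocytes.

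**Figure D2:**
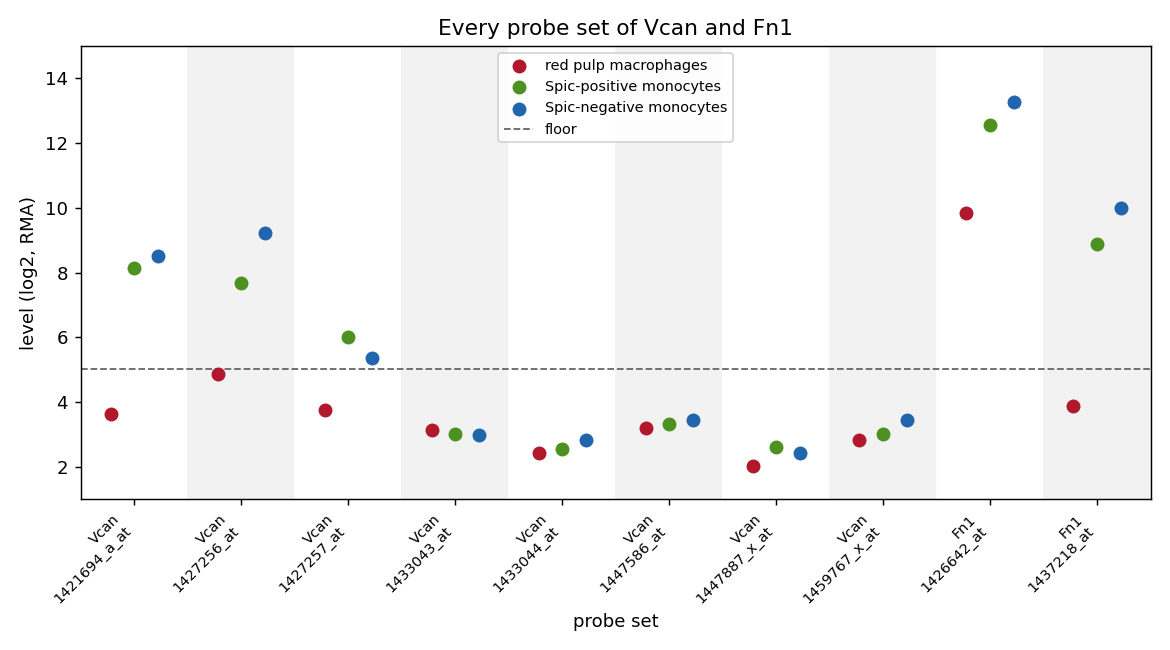
Level (log2, RMA) of all 8 probe sets of Vcan and both of Fn1 on the 3 arrays, 1 point per array, with the floor of 5.02 as a dashed line. In the 3 Vcan probe sets above the floor the macrophage point lies below it, while Spic-positive and Spic-negative monocytes change places on 1427257_at.

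Receptors and partners of these matrix proteins followed no single pattern. Of 6 integrin genes for fibronectin receptors, Itga4 differed by -2.87 between macrophages and Spic-negative monocytes, at 9.23 in macrophages and 12.10 in Spic-negative monocytes, and Itgb7, whose product pairs with that of Itga4, differed by -2.01. Itga5, the alpha chain of the classical fibronectin receptor, differed the other way, by 1.48. The hyaluronan receptor Cd44 measured 12.13 in macrophages, 12.25 in Spic-positive and 12.51 in Spic-negative monocytes. Of the versican-cleaving proteases, Adamts1, Adamts4 and Adamts5 lay below the floor on all 3 arrays, and Adamts9 measured 4.85 in macrophages, 5.39 in Spic-positive and 5.17 in Spic-negative monocytes. Fibroblasts and endothelial cells also make Vcan and Fn1. Of their markers 5 of 9 were above the floor in macrophages, 4 in Spic-positive and 2 in Spic-negative monocytes, with Col1a1, Col3a1, Lum and Pdgfra below it on every array. These counts turn on values close to the floor of 5.02. In macrophages Col1a2 measured 5.44, Dcn 5.42, Cdh5 5.20 and Pdgfrb 5.15. Pdgfrb was higher in the monocytes, at 5.55 in Spic-positive and 5.90 in Spic-negative cells. Pecam1, an adhesion molecule of endothelial cells that some leukocytes also carry, measured 7.18 in macrophages, 5.16 in Spic-positive and 5.28 in Spic-negative monocytes.

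Hp encodes haptoglobin, a secreted protein that binds free haemoglobin. It measured 10.62 in red pulp macrophages, 11.06 in Spic-positive monocytes and 12.48 in Spic-negative monocytes. The levels in macrophages and Spic-positive monocytes lay close together, with a difference of -0.44, and both were below that of Spic-negative monocytes, with differences of -1.85 and -1.41. With a 2.66-fold lower level in Spic-positive monocytes, Hp stood with Vcan apart from the other members between the monocyte arrays, where 0.71% of all genes differed more in that direction. Cd163, the receptor that takes up haptoglobin bound to haemoglobin, ran the other way in macrophages, at 11.48, and was below the floor in Spic-positive monocytes at 3.81 and in Spic-negative monocytes at 4.49. Hp has 1 probe set, so no second reading of it is at hand.

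Chil3 encodes the secreted chitinase-like protein Ym1, which binds sugars and does not digest chitin. It measured 11.90 in red pulp macrophages, 12.83 in Spic-positive monocytes and 13.19 in Spic-negative monocytes. Macrophages were 2.45-fold below Spic-negative monocytes, while Spic-positive monocytes differed from them by -0.36, about the size of the median disagreement between probe sets. Its neighbour Chil4 is a near-identical copy, and a probe set that the annotation gives to Chil4 and Chil3 together measured 10.83, 11.94 and 12.97, with differences of -2.13 for macrophages against Spic-negative monocytes and -1.02 between the monocyte arrays. The probe set of Chil4 alone lay below the floor throughout, at 3.90, 4.90 and 4.83. How the signal divides between Chil3 and Chil4 cannot be told apart on the shared probe set.

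Ly86 encodes MD-1, a secreted protein that holds the Toll-like receptor relative RP105 (Cd180) at the cell surface and is also present in B cells. It measured 12.42 in red pulp macrophages, 12.83 in Spic-positive monocytes and 12.85 in Spic-negative monocytes. The widest difference was -0.44, less than the median disagreement between probe sets in the comparisons with the macrophage, and 28% of all genes differed from Spic-negative monocytes more strongly in that direction. Of the members, Ly86 thus separated the macrophage from the monocyte least, except that Mgst1 differed by slightly less from Spic-positive monocytes. Cd180 itself measured 7.63 in macrophages, 8.92 in Spic-positive and 8.73 in Spic-negative monocytes. Tlr4, the receptor that pairs with the related protein MD-2, measured 9.13, 5.84 and 6.34, and Ly96, which encodes MD-2, 9.19, 9.04 and 8.69. Ly86 lies next to F13a1, the gene for coagulation factor XIII A, in the gene table, and F13a1 differed by -5.26 between macrophages and Spic-negative monocytes.

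Gpr35 encodes a G protein-coupled receptor of immune and gut cells. It measured 9.30 in red pulp macrophages, 10.29 in Spic-positive monocytes and 10.60 in Spic-negative monocytes. Macrophages differed by -1.31 from Spic-negative monocytes and by -0.99 from Spic-positive monocytes, the second just inside 2-fold. The monocyte arrays differed by -0.31.

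Ifitm6 belongs to the interferon-induced transmembrane proteins, small membrane proteins of which several restrict the entry of viruses into cells. It measured 10.74 in red pulp macrophages, 12.09 in Spic-positive monocytes and 12.69 in Spic-negative monocytes. Macrophages were 3.86-fold below Spic-negative and 2.54-fold below Spic-positive monocytes. In the gene table Ifitm6 follows Ifitm5, Ifitm2, Ifitm1 and Ifitm3, and these 4 neighbours were lower in macrophages than in Spic-negative monocytes as well, with differences of -1.94, -2.65, -1.60 and -1.61. Ifitm3 measured 12.02 in macrophages, 13.48 in Spic-positive and 13.63 in Spic-negative monocytes, and Ifitm5 was below the floor in macrophages at 4.95. Ifitm10 differed by 1.42, and Ifitm7 lay below the floor on all 3 arrays. Members of this family resemble each other in sequence, so their probe sets may share signal.

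Plac8 encodes a small cysteine-rich protein of myeloid cells and lymphocytes. It measured 11.50 in red pulp macrophages, 13.74 in Spic-positive monocytes and 13.62 in Spic-negative monocytes. It was the 1 member at its highest in Spic-positive monocytes, although the difference of 0.13 from Spic-negative monocytes was below the median disagreement between probe sets. The macrophage differed from Spic-negative monocytes by -2.11 and from Spic-positive monocytes by -2.24, so the whole difference lay between the macrophage and the monocytes. The array of Spic-positive monocytes also carried more of the B cell markers: 10 of 11 were at least 2-fold higher there than in Spic-negative monocytes, beside 3.49% of all genes, with the log2 of their summed level at 14.60 in macrophages, 13.38 in Spic-positive and 11.75 in Spic-negative monocytes. Such sums are carried by the brightest probe sets, here Ighm at 14.49 in macrophages, 12.97 in Spic-positive and 11.47 in Spic-negative monocytes. Gene by gene, 4 of 11 B cell markers were 2-fold or more lower in macrophages than in Spic-positive monocytes. Only 1 was as far above, beside 11.6% of all genes lower and 22% higher, and the median was -0.65. Plac8 and Ly86, both known from B cells too, were the members that differed least between the monocyte arrays. The part of B cell RNA in this was not tested.

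Mgst1 encodes microsomal glutathione S-transferase 1, a membrane enzyme that detoxifies reactive compounds with glutathione. It measured 11.33 in red pulp macrophages, 11.71 in Spic-positive monocytes and 12.21 in Spic-negative monocytes, on the probe set 1415897_a_at. The 3 levels stood in similar steps, -0.38 between macrophages and Spic-positive monocytes and -0.50 between the monocyte populations, and none of its differences reached 2-fold. The other probe set, 1415898_at, was below the floor on all arrays, between 3.51 and 3.62.

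**Figure D3:**
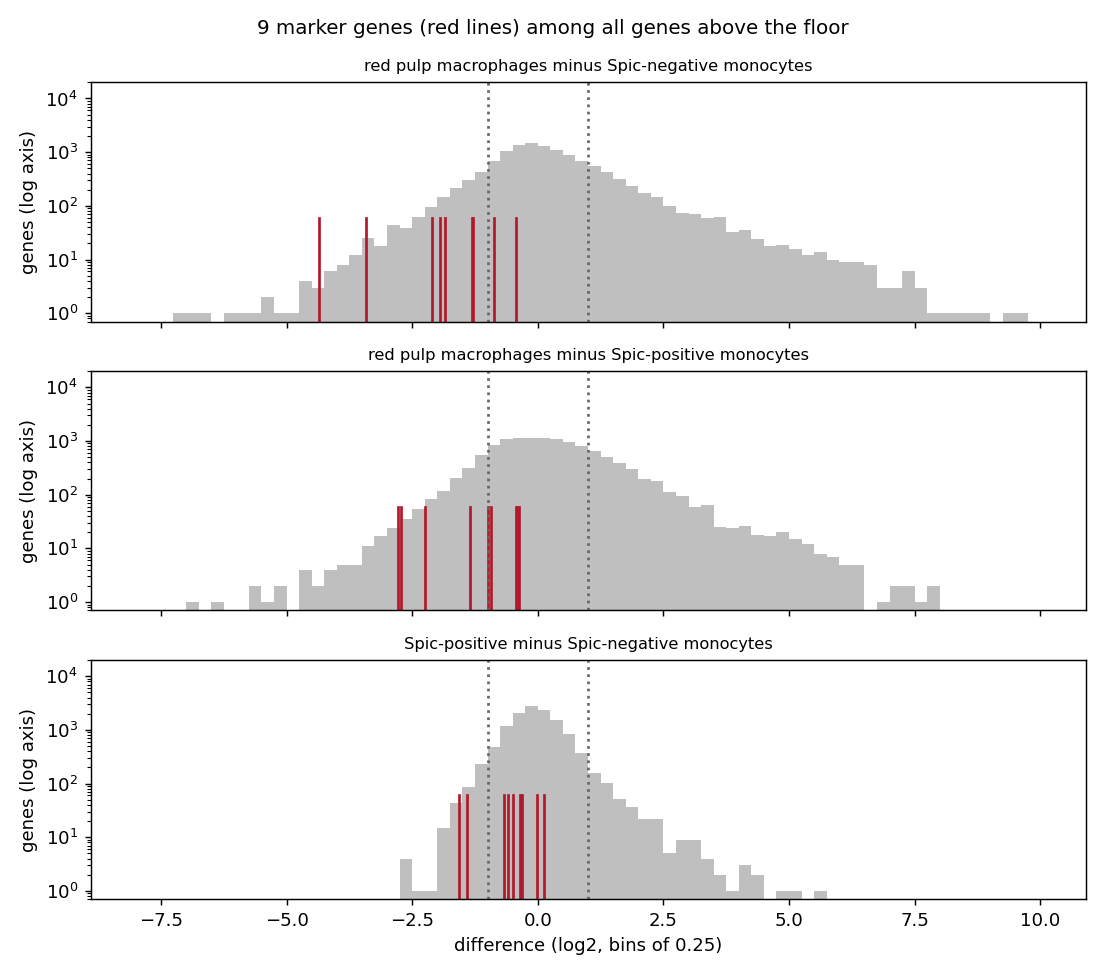
Number of genes above the floor (log axis) by their log2 difference in bins of 0.25, for red pulp macrophages minus Spic-negative monocytes, red pulp macrophages minus Spic-positive monocytes and Spic-positive minus Spic-negative monocytes, with the 9 marker genes as red lines and 2-fold as dotted lines. Against Spic-negative monocytes the red lines run from -4.35 for Vcan to -0.44 for Ly86, and between the monocyte populations from -1.56 to 0.13.

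Neutrophils are another source of Hp, Chil3, Ifitm6 and Mgst1, and their markers were present on every array. The defining marker Ly6g had no probe set under its symbol alone. Of 13 measured neutrophil markers, 11 were above the floor in red pulp macrophages, 12 in Spic-positive and 12 in Spic-negative monocytes, and the log2 of their summed level was 15.09, 15.19 and 15.11. The sum weighs the brightest probe sets most, so it does not measure the amount of neutrophil RNA. Among them, S100a8 measured 12.80, 13.22 and 13.07 in the same order, and S100a9 12.58, 13.48 and 13.46. In macrophages 1 of the 12 was 2-fold or more above Spic-negative monocytes and 3 were as far below, beside 19.6% and 11.3% of all genes. Camp, Ltf, Ngp and Lcn2, granule proteins of neutrophils, measured 12.53, 12.18, 12.77 and 11.58 in macrophages and 11.76, 10.71, 12.23 and 10.72 in Spic-negative monocytes. Mmp8, Cd177 and Cxcr2 differed by -3.38, -2.14 and -1.49 in the same comparison. The part of neutrophil RNA in the levels of the marker genes in macrophages was not tested. Erythroid markers were also high on the macrophage array, with 7 of 9 above the floor there and a log2 summed level of 13.47, against 8.03 in Spic-positive and 7.70 in Spic-negative monocytes. Of T and NK cell markers 5 of 9 were at least 2-fold higher in macrophages than in Spic-negative monocytes, beside the same 19.6% of all genes, among them Gzma at 9.24 in macrophages and 4.31 in Spic-negative monocytes. Of dendritic cell markers 4 of 8 were higher and 1 lower by as much, beside 19.6% and 11.3% of all genes. In Spic-positive monocytes 3 of these 8, namely Ccr7, Ccr9 and Zbtb46, were at least 2-fold higher than in Spic-negative monocytes. None was 2-fold lower, beside 3.49% of all genes higher and 3.06% lower. Ccr7 measured 9.90 in Spic-positive and 5.85 in Spic-negative monocytes. Of basophil and mast cell markers 2 of 5 were above the floor, in macrophages alone: Prg2 at 8.89 in macrophages, 4.16 in Spic-positive and 3.27 in Spic-negative monocytes, and Mcpt8 at 8.01 in macrophages and 3.92 in Spic-negative monocytes. The part of these cells in the levels of the marker genes was not tested. Fewer cells of a type and less RNA per cell cannot be told apart in such bulk samples.

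The marker genes can be set beside 16 other genes of classical monocytes. Of these, 13 had a probe set of their own and all 13 were above the floor. In macrophages 11 of 13 lay 2-fold or more below Spic-negative monocytes, and 11 of 13 below Spic-positive monocytes, beside 11.3% and 11.6% of all genes, with medians of -3.02 and -2.06. These medians were more negative than the -1.85 and -0.99 of the 9 marker genes, a difference that was not tested. This list too was chosen with earlier results of these data known, so its counts are a description only. Ccr2, the receptor for the chemokine Ccl2, measured 7.00 in macrophages, 12.03 in Spic-positive and 12.51 in Spic-negative monocytes. The co-receptor gene Cd14, by contrast, measured 13.11, 12.83 and 13.26. Between the monocyte populations 3 of 13 were 2-fold or more below in the Spic-positive cells, namely Thbs1, Ccr1 and C5ar1, beside 3.06% of all genes, and the median was -0.43.

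Nonclassical monocytes are the other main blood subset, with little Ly6C. Compared with Spic-negative monocytes, macrophages had 4 of 11 measured genes of that subset higher and 4 lower by 2-fold or more, beside 19.6% and 11.3% of all genes, with a median of -0.03. In Spic-positive monocytes 1 of 11, Itgax, was at least 2-fold higher than in Spic-negative monocytes and none was 2-fold lower, beside 3.49% and 3.06% of all genes. Cx3cr1, the receptor that marks nonclassical monocytes, measured 7.56 in macrophages, 10.95 in Spic-positive and 10.69 in Spic-negative monocytes. The 12 genes typical of red pulp macrophages that were measured all lay 2-fold or more above either monocyte population in macrophages, beside 19.6% of all genes against Spic-negative and 22% against Spic-positive monocytes, with medians of 7.21 against Spic-negative and 4.15 against Spic-positive monocytes. They include Spic, reported by GFP, and Adgre1. Both belong to the macrophage gate, so their higher levels follow at least in part from the sort. The Ly6C gate itself is seen in a probe set shared by Ly6c2 and Ly6c1, at 11.48 in macrophages, 12.79 in Spic-positive and 12.97 in Spic-negative monocytes.

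**Figure D4:**
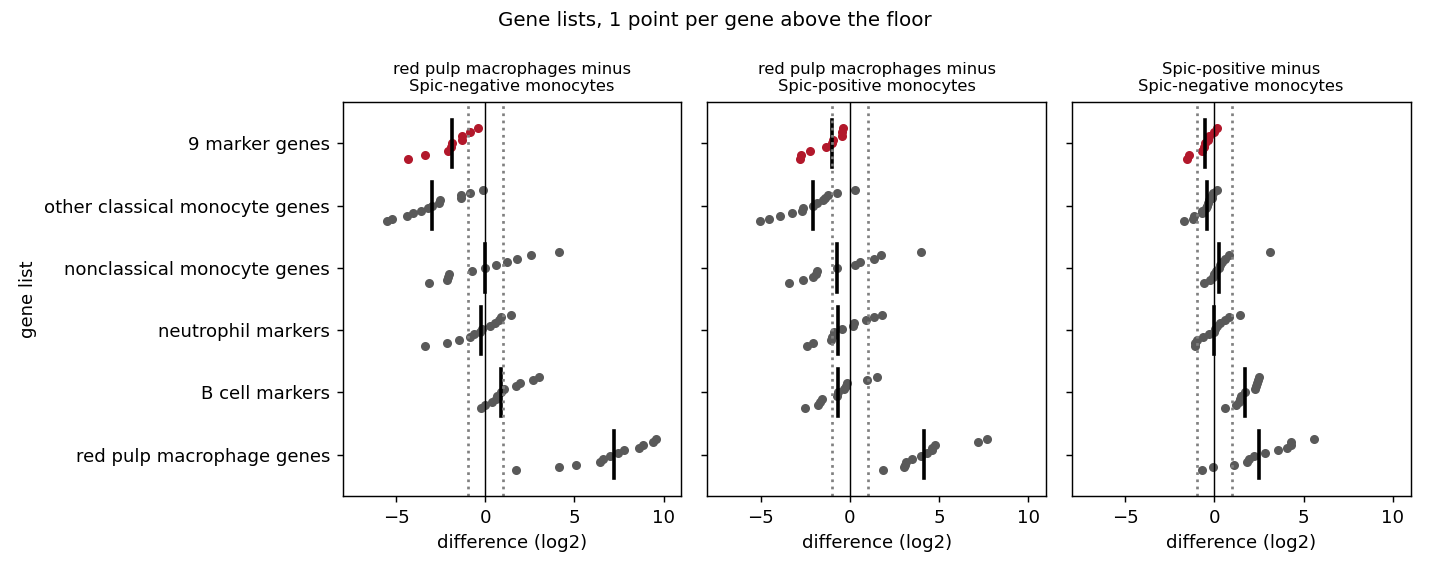
Log2 difference of each gene above the floor in 6 gene lists, 1 point per gene with the list's median as a black bar and 2-fold as dotted lines, for red pulp macrophages minus Spic-negative monocytes, red pulp macrophages minus Spic-positive monocytes and Spic-positive minus Spic-negative monocytes. The 9 marker genes (red) have medians of -1.85, -0.99 and -0.50, and the 13 other classical monocyte genes -3.02, -2.06 and -0.43.

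Genes with the most similar profiles were found as those nearest in the levels on the 3 arrays, each gene centred on its own mean, over the 12375 genes above the floor. Vcan lay nearest to Thbs1, which encodes the matrix protein thrombospondin 1, at a distance of log2 0.121, then to Pi16 (0.127) and Bst1 (0.303). Thbs1 measured 7.98 in macrophages, 10.64 in Spic-positive and 12.35 in Spic-negative monocytes, all above the floor. Its steps were like those of the brightest Vcan probe set, whose macrophage value of 4.88 lay below the floor. The other Vcan probe sets above the floor differed by -0.38 and 0.64 between the monocyte populations, so the likeness holds for that 1 probe set. Hp lay nearest to Trem1, a myeloid receptor gene, at 0.024, and Fn1 to Plxnd1, a semaphorin receptor gene, at 0.107. Anxa1, which encodes the anti-inflammatory protein annexin A1, was among the 3 nearest genes of both Chil3 and Gpr35, at 0.025 and 0.028, and measured 11.42, 12.37 and 12.70. Plac8 lay nearest to Kmt5a, Mgst1 to Asb7, Ifitm6 to Gk5 and Ly86 to Sema6b. The last 2 neighbours lay close to the floor of 5.02. Gk5 measured 3.69 in macrophages, 5.06 in Spic-positive and 5.64 in Spic-negative monocytes, and Sema6b 5.24, 5.66 and 5.68. With 3 arrays many genes lie this close together, so nearness describes these arrays only.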

How the data were processed

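RNA of 3 sorted spleen populations was measured on 1 Affymetrix mouse array each; per the labels' protocols, biotin-labelled cRNA was made by repeated amplification, which shortens cRNA. The authors deposited log2 values for each probe set that came from RMA, per the submitters' processing notes. The version was not given there, and the log2 scale was taken from the values (1.82 to 14.50). Quantile normalization within RMA hides differences in total RNA. Array medians were 4.97 in red pulp macrophages, 5.09 in Spic-positive and 5.01 in Spic-negative monocytes. Of 45101 probe sets, 64 controls were left out. Of the rest 34945 had 1 symbol (34741 updated through the gene identifier), 932 had several and 9160 were unnamed here. Each gene took its probe set with the highest mean, and the 12375 of 18193 genes above log2 5.02 were compared by differences of log2 values. All 9 members, the gene lists and the 3 nearest genes per member are named; the members and lists were chosen with earlier results of these data known. Promoters came from RefSeq. Protein sequence was not used here. Tools were Python 3.11.15 (pandas 2.3.3, numpy 2.4.6, matplotlib 3.10.9), R 4.3.3 and, for the cyclic loess, limma 3.58.1; the scripts were tested on simulated data. The values were recomputed under 6 other settings, and under 1 more chosen after seeing the data.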

Additional observations from a re-analysis of the deposited data

How the results depend on the processing

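The direction of the members' median and count was the same under cyclic loess, centring of the arrays on their medians, the mean of all probe sets per gene, a floor at the 75th percentile, no floor, and no probe sets ending in _x_at, _s_at or _a_at. The mean of probe sets brought Vcan below the floor and left 1 of 8 members, Hp, 2-fold lower in Spic-positive monocytes relative to Spic-negative ones. The median for macrophages against Spic-positive monocytes, -0.99, passed 2-fold with cyclic loess (-1.07) and without the suffixed probe sets (-1.35, over 7 members, since Gpr35 has no other probe set and that of Mgst1 is below the floor). Without Vcan and Fn1, a choice made after seeing the data, 5 of 7 members were 2-fold lower in macrophages than in Spic-negative monocytes, 2 of 7 than in Spic-positive monocytes, and 1 of 7 was lower in Spic-positive monocytes relative to Spic-negative ones. Of 153 single-gene values under these 6 settings, 152 stayed on their side of 2-fold and Gpr35, at -1.07 with cyclic loess for macrophages against Spic-positive monocytes, did not. Many of the 153 could not move, so this count is no measure of stability. The floor settings left every member's value, and so their count and median, unchanged. The mean of probe sets cannot move the 6 members with 1 probe set. Without suffixed probe sets, each remaining member kept the same probe set. Ly86 changed sign between the monocyte populations, at 0.02 with cyclic loess in place of -0.02. Centring the arrays moved the median of all genes from 0.10 to 0.23 for macrophages against Spic-positive monocytes. Between the monocyte populations the shares of all genes 2-fold higher and lower were 3.49% and 3.06%, but 2.9% and 3.88% after centring and 3.61% and 2.11% after cyclic loess. No paired analysis was possible because each population had 1 array. Differences against levels near the floor are limited by the background signal.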

Other observations

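Other genes of glutathione use differed among themselves. Among 9 such genes, red pulp macrophages had 4 above and 2 below Spic-negative monocytes by 2-fold or more, beside 19.6% and 11.3% of all genes, with a median of 0.31. Gstm1, a cytosolic glutathione transferase, had the order of Mgst1, with differences of -0.55 between macrophages and Spic-positive monocytes and -0.71 between the monocyte populations. Gsta4, a glutathione transferase for products of lipid peroxidation, measured 9.62 in macrophages, 4.56 in Spic-positive and 5.09 in Spic-negative monocytes, and Mgst2, a relative of Mgst1, 8.16, 6.92 and 6.67. Gsr, which encodes glutathione reductase, had the order of Mgst1 too, at 8.92, 11.35 and 11.74. Gclm, a subunit of the enzyme that begins glutathione synthesis, stood at 9.15 in macrophages, 9.35 in Spic-positive and 7.62 in Spic-negative monocytes.

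The relatives of Chil3 also differed among themselves. Chid1, a chitinase-domain gene, measured 8.68 in macrophages, 5.68 in Spic-positive and 6.91 in Spic-negative monocytes, and Chil1, another chitinase-like gene, 7.65, 8.48 and 7.30. Chia1 lay below the floor on all 3 arrays, and Chit1 measured 5.55, 5.92 and 5.40.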
